A study of Mus musculus with 11 samples.

Results

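Solute carriers are membrane proteins, named Slc with a family number, that move amino acids, sugars, nucleosides, ions, metals and vitamins across the plasma membrane and the membranes of organelles. The genes described here are those whose name in the deposited table begins with Slc and a number, without the mitochondrial Slc25 family and without Slc27a1, Slc27a4, Slc7a11, Slc40a1, Slc11a1 and Slc11a2. This rule found 151 of the 12932 genes of the table, out of 195 with such a name, and used no measured value. By substrate, 27 were classed with amino acids, 24 with ions, 24 with metals, 13 with sugars, 11 with organic ions and lipids, 10 with nucleotide sugars, 10 with vitamins and choline, 6 with nucleosides and nucleotides, 5 with carboxylates, 16 with other or unclear substrates, and 5 carry the name but are not transporters themselves. Slc8b1, which works in mitochondria, stayed in because the rule does not name it, and the other members were not checked for this.

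The data are RNA-seq of alveolar macrophages, the resident macrophages of the lung airspace, from 9-week-old C57BL/6J mice of both sexes. Mature cells (mAMs, CD11b- SiglecF+) were sorted from Rxrab fl/fl littermates without Cre (mAM_WT, control mAMs, n = 4) and from Cd11c Cre+ Rxrab fl/fl mice (mAM_KO, RXR-deficient mAMs, n = 3, with a replicate 4 kept for an alternative fit). Immature cells (ImmAMs, CD11b+ SiglecF+) were sorted from Cd11c Cre+ Rxrab fl/fl mice (Imm_KO, n = 3). All mice carried floxed alleles of Rxra and Rxrb, which encode the nuclear receptors RXRα and RXRβ, and the Cd11c promoter that drives Cre is active in alveolar macrophages and dendritic cells. No library of ImmAMs from control mice was analysed here, so for ImmAMs against control mAMs the genotype and the sorted population cannot be told apart.

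Values are in CPM, read counts relative to library sizes scaled by the trimmed mean of M-values (TMM). The libraries held 16659960 to 37873532 counted reads. A gene was called when the adjusted p of limma over all 12889 genes tested was under 0.05, and log2 fold changes are given ± SE. The labels do not name the mouse behind each library, and the legends of the study give its group sizes as mice. Counts over the whole Rxra gene were 310.2 to 379.5 CPM in control mAMs, 334 to 351 CPM in RXR-deficient mAMs and 283 to 305 CPM in ImmAMs, and those of Rxrb were 51.4 to 72.1, 39.3 to 52.8 and 31.9 to 35.2 CPM. A count over the whole gene does not separate the floxed exons, so these levels do not check the deletion. The summed level of 10 alveolar macrophage markers was 20613 to 26903 CPM, 25349 to 31351 CPM and 23582 to 25382 CPM in the 3 groups. In ImmAMs against control mAMs, 8 of the 10 were lower and 1 was higher. That 1 was Chil3, which made up most of the sum, at means of 16163, 20305 and 21175 CPM. The 5 listed monocyte markers, of 7, summed to 1489 to 2163, 1412 to 1716 and 6771 to 7426 CPM, with Ly6c2 and Plac8 not listed. Itgam is among the 5 and encodes CD11b, by which ImmAMs were sorted from mAMs, so this sum depends in part on the sort. The 6 listed interstitial macrophage markers, of 8, summed to 1.81 to 2.70, 3.57 to 12.02 and 290.2 to 314.9 CPM. The 5 listed neutrophil markers, of 6, summed to 30.7 to 39.5, 31.6 to 40.6 and 51.7 to 61.9 CPM, with 4 called higher in ImmAMs than in control mAMs and Ly6g not listed. The 1 listed alveolar type 2 cell marker, of 6, was at 0.806 to 2.65, 1.34 to 4.24 and 8.53 to 9.21 CPM, with Sftpc and Sftpb not listed, and the 1 listed dendritic cell marker, of 5, at 0.394 to 0.664, 0.715 to 1.14 and 1.46 to 3.02 CPM. The markers of these 5 other cell types thus stood higher in ImmAMs, beside every result on ImmAMs given here, and their part in those results was not tested. Listed markers of B cells and of club and ciliated cells overlapped between ImmAMs and control mAMs, and those of erythroid cells stood lower. The interstitial macrophage sum was also higher in RXR-deficient mAMs than in control mAMs, with 1 marker called. That was Cx3cr1, at 0.845 and 4.84 CPM (limma, adjusted p = 0.0164). The part of these cells in the results on RXR-deficient mAMs was not tested either. In bulk samples, fewer cells of a type and less RNA per cell cannot be told apart.

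In lungs, alveolar macrophages take up and break down surfactant, and the carriers of lysosomes export the products of that breakdown. Amino acid carriers at the plasma membrane work partly as exchangers, and the carrier Slc38a9 at the lysosome reports arginine to the mTORC1 kinase. RXRs bind DNA as partners of other nuclear receptors, and with PPARγ they bind direct repeats of the letters AGGTCA spaced by 1 base.

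The members were measured at very different levels. Per kilobase of exon, the highest level in control mAMs was that of the taurine carrier Slc6a6, at 116 ± 4.74 CPM per kb (SD, n = 4), and the next was the cationic amino acid carrier Slc7a2, at 102 ± 8.98 CPM per kb. They were followed by the lysosomal histidine and peptide carrier Slc15a3 at 93.8 ± 6.87, the zinc importer Slc39a1 at 78.5 ± 3.06 and the heme carrier Slc48a1 at 73.5 ± 4.85 CPM per kb. The SDs of Slc7a2 and Slc15a3 reach each other, and those of Slc39a1 and Slc48a1 do as well. In ImmAMs, Slc7a2 stood first at 145 ± 5.78 CPM per kb, Slc6a6 second at 75.5 ± 3.3 and Slc15a3 in place 9 at 37.2 ± 1.54 CPM per kb. The CPM of all 151 members summed to 9878 ± 71.9 in control mAMs (SD, n = 4), 9755 ± 314.4 in RXR-deficient mAMs (n = 3) and 9899 ± 82.7 in ImmAMs (n = 3), so the total differed by less than the spread of RXR-deficient mAMs while its parts changed.

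In RXR-deficient mAMs against control mAMs, 13 of the 151 members were called, 6 higher and 7 lower, where 4.84% of all genes tested were called, 2.25% higher and 2.59% lower. Of the 13, 7 carry amino acids or creatine. Called were 0 of the 13 sugar carriers, 0 of the 24 metal carriers and 0 of the 10 nucleotide sugar carriers. At a share of 4.84%, a count of 0 does not set classes of this size apart from all genes. The median log2 fold change was 0.01 over the members and -0.002 over all genes. In ImmAMs against control mAMs, 88 were called, 49 higher and 39 lower, where 48.1% of all genes were called. In ImmAMs against RXR-deficient mAMs, 68 were called, 42 higher and 26 lower, where 37.9% of all genes were called. Called higher were 22.8% and 17.7% of all genes in these comparisons of ImmAMs, and called lower 25.3% and 20.2%. The comparisons share libraries, and 55 members were called in 0 of the 3.

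**Figure D1:**
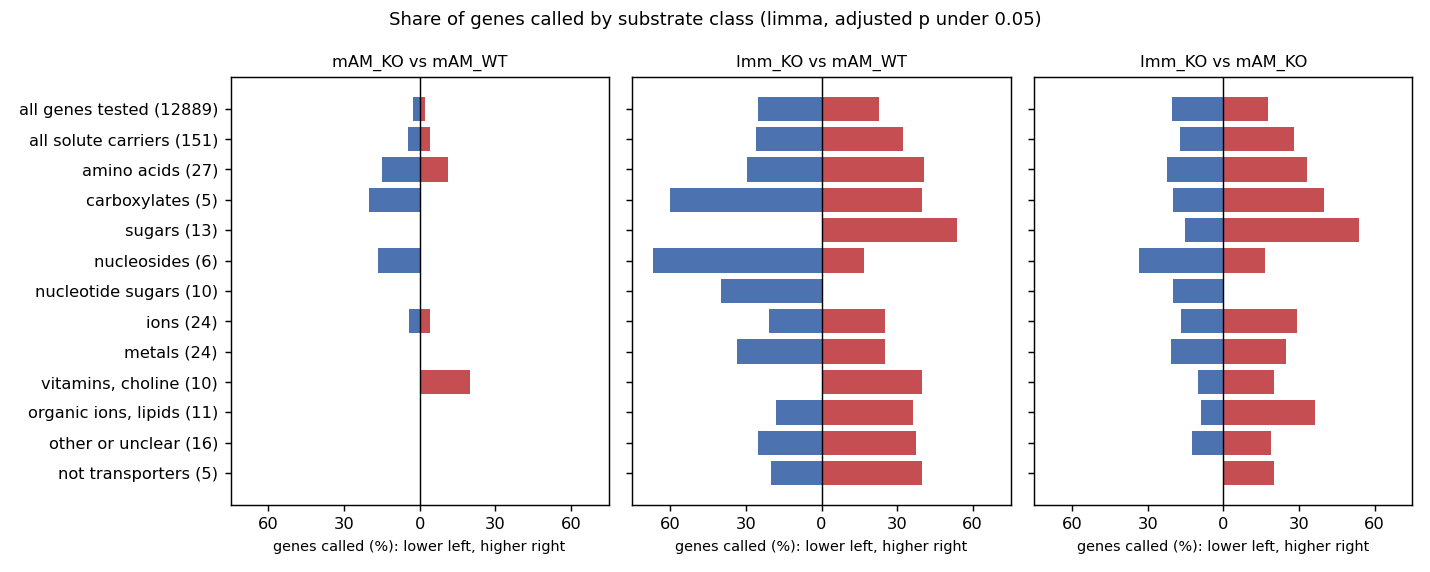
Percent of genes called higher (red, to the right) and lower (blue, to the left) in each of the 3 comparisons, for all genes tested, all 151 solute carriers and each substrate class, with the number of genes in parentheses. In ImmAMs against control mAMs the sugar class has 7 members to the right and 0 to the left, and the nucleotide sugar class has 0 to the right and 4 to the left.

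The count of 13 moved with single libraries. Leaving out replicate 2 or replicate 3 of control mAMs gave 4, and leaving out any 1 ImmAM library gave 7. Leaving out replicate 1 of RXR-deficient mAMs gave 5, and leaving out their replicate 3 gave 2. It was 10 with mAM_KO replicate 4 added, and Slc12a4, Slc15a3 and Slc38a9 were among those that lost their call then. Of the 13, Slc7a5 kept its call in all 14 other settings and in all 10 fits that leave out 1 library. The other 11 described here each lost it in at least 1 of these 10 fits. Slc44a1 kept it in 8, Slc15a3 and Slc16a1 in 7 each, Slc38a9 in 6 and Slc29a1 in 5. Slc6a8, Slc7a1, Slc12a4, Slc16a10 and Slc19a2 kept it in 2 each, and Slc1a3 kept it in 1. Without replicate 3 of RXR-deficient mAMs, Slc7a5 and Slc7a1 kept their calls.

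Among the amino acid carriers, Slc7a5 (chr8:121881150-121907694, GRCm38) encodes the exchanger of large neutral amino acids that pairs with the heavy chain Slc3a2. Its libraries gave 77.1, 74.3, 75.4 and 79.7 CPM in control mAMs, 44.8, 44.4 and 41.3 CPM in RXR-deficient mAMs and 23.5, 27.6 and 20.3 CPM in ImmAMs. The 3 groups did not overlap and stood in this order, and replicate 4 of RXR-deficient mAMs, at 53.8 CPM, lay below the control mAMs too. The log2 fold change was -0.82 ± 0.10 in RXR-deficient mAMs (limma, adjusted p = 0.00126) and -1.70 ± 0.10 in ImmAMs (adjusted p = 1.82e-08), both against control mAMs, and -0.88 ± 0.10 in ImmAMs against RXR-deficient mAMs (adjusted p = 2.16e-05). Its partner Slc3a2 was at 144 ± 7.76, 122 ± 7.62 and 191 ± 9.92 CPM (mean ± SD) and rose in ImmAMs by 0.40 ± 0.07 on the log2 scale (limma, adjusted p = 0.000381). The exchanger and its heavy chain thus had opposite signs in ImmAMs.

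Slc15a3 and Slc16a10 fell along the same order of groups. Slc15a3 gave 476, 553, 490.1 and 541 CPM in control mAMs, 431, 406 and 332 CPM in RXR-deficient mAMs and 196, 213 and 204 CPM in ImmAMs. It fell by 1.33-fold in RXR-deficient mAMs (limma, adjusted p = 0.0253) and by 2.52-fold in ImmAMs (adjusted p = 7.52e-08) against control mAMs. Replicate 4 of RXR-deficient mAMs held 512 CPM, inside the range of control mAMs, and the gene lost its call in RXR-deficient mAMs when that library was added. Slc16a10, a carrier of aromatic amino acids, gave 221, 209, 202 and 202 CPM, 171, 183 and 167 CPM and 43.7, 47.7 and 46 CPM in the same 3 groups. The log2 fold change of Slc16a10 was -0.27 ± 0.06 in RXR-deficient mAMs (limma, adjusted p = 0.0385) and -2.19 ± 0.06 in ImmAMs (adjusted p = 7.92e-11). In Slc15a3, 28.1% of exon bases lie under an exon of a gene on the opposite strand, and the strand setting of the counting is not given in the sources used here.

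Other amino acid carriers went different ways in the 2 populations from Cre+ mice. Slc7a1, a carrier of arginine and lysine, gave 35.7, 31.2, 31.7 and 29.6 CPM in control mAMs, 17.7, 20.7 and 28 CPM in RXR-deficient mAMs and 42.2, 42.8 and 44.3 CPM in ImmAMs. It was lower in RXR-deficient mAMs (-0.56, limma adjusted p = 0.0355) and higher in ImmAMs (0.43, adjusted p = 0.0166), with no overlap of the groups. Slc1a3, a glutamate and aspartate carrier, was at 0.859, 1.87, 1.45 and 1.79 CPM, 7.45, 2.61 and 7.51 CPM and 0.209, 0.301 and 0.131 CPM. It was higher in RXR-deficient mAMs (1.88, limma adjusted p = 0.0498) and lower in ImmAMs (-2.82, adjusted p = 0.000444). The call of Slc1a3 in RXR-deficient mAMs held in 1 of the 10 fits that leave out a library, and it rests on 152 reads over the control libraries. In ImmAMs its log2 fold change ran from -2.93 over the alternatives to -1.02 with a pseudocount of 1 CPM, and the call was lost with voom (adjusted p = 0.0519).

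The creatine carrier Slc6a8 gave 0.753, 1.71, 1.33 and 1.79 CPM in control mAMs, 3.16, 2.91 and 2.35 CPM in RXR-deficient mAMs and 46.9, 37.1 and 42.8 CPM in ImmAMs. Every RXR-deficient library lay above every control library, and every ImmAM library lay above both. The rise was 1.07 ± 0.28 on the log2 scale in RXR-deficient mAMs (limma, adjusted p = 0.0474) and 4.99 ± 0.28 in ImmAMs (adjusted p = 1.53e-08). Slc38a9, the lysosomal arginine sensor, was at 34.6 ± 2.27, 46 ± 2.48 and 49 ± 4.76 CPM and was higher than in control mAMs in both comparisons, while the difference between ImmAMs and RXR-deficient mAMs did not pass the test (limma, adjusted p = 0.508). Its call in RXR-deficient mAMs was lost with replicate 4 of these cells added and in 4 of the 10 fits that leave out a library.

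In ImmAMs against control mAMs, 19 of the 27 amino acid carriers were called, 11 higher and 8 lower. That is 70.4% of the class, beside 48.1% of all genes. The median log2 fold change was 0.15 over the class and -0.003 over all genes. The 2 carriers with the highest levels per kilobase moved in opposite directions. Slc7a2 rose from 931 ± 82 to 1329 ± 52.8 CPM (limma, adjusted p = 0.0006), and Slc6a6 fell from 981 ± 40.1 to 639 ± 27.9 CPM (adjusted p = 9.43e-06). The carriers of small neutral amino acids Slc38a2, at 147 and 269 CPM, and Slc36a1, a proton-coupled carrier found on lysosomes, at 104 and 194 CPM, were higher. So were the glutamine carrier Slc1a5 at 70.1 and 85.2 CPM and Slc7a4 at 1.67 and 13.8 CPM. The call of Slc1a5 was lost in 4 of 14 alternatives and in 5 of the 10 fits that leave out a library, with a limma adjusted p of up to 0.134. Slc7a7, which exports cationic amino acids and whose loss in people causes lysinuric protein intolerance, fell from 47.4 ± 3.82 to 33.8 ± 5.06 CPM (limma, adjusted p = 0.00251). In the class as a whole the CPM summed to 4328 ± 57.5, 4274 ± 275.2 and 4202 ± 42.1 in control mAMs, RXR-deficient mAMs and ImmAMs.

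**Figure D2:**
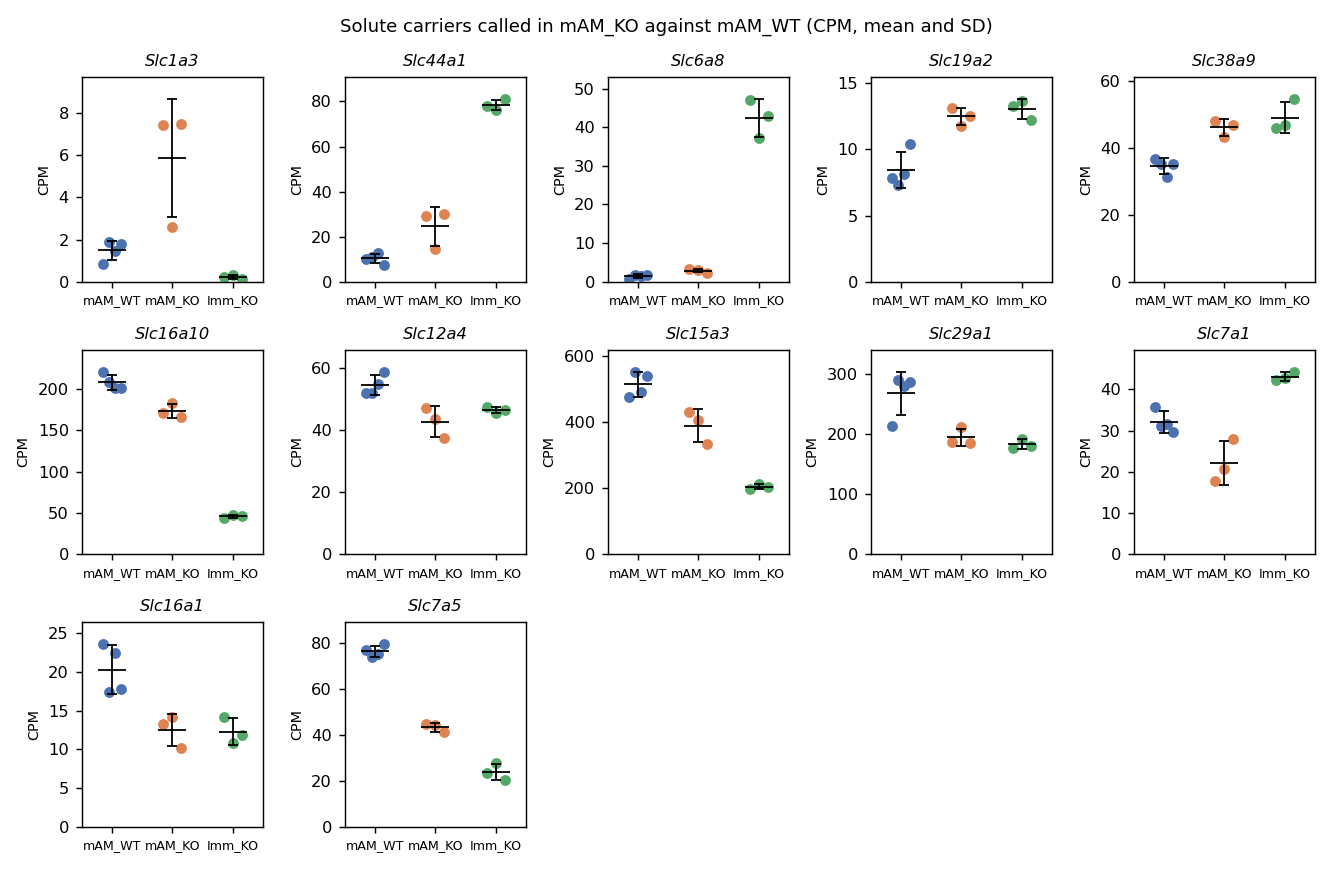
CPM of 12 of the 13 members called in RXR-deficient mAMs (mAM_KO) against control mAMs (mAM_WT), with ImmAMs (Imm_KO), 1 point per library and bars for the mean and SD, on axes that start at 0. Slc7a5 falls from 74.3 to 79.7 CPM in control mAMs through 41.3 to 44.8 CPM to 20.3 to 27.6 CPM, and 1 RXR-deficient library of Slc44a1 and of Slc1a3 lies apart from the other 2.

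The vitamin and choline carriers held 2 of the 6 rises in RXR-deficient mAMs. Slc44a1, a choline carrier at the plasma membrane, gave 10.03, 10.9, 12.7 and 7.54 CPM in control mAMs, 29.2, 14.5 and 30.1 CPM in RXR-deficient mAMs and 77.8, 76.3 and 81 CPM in ImmAMs. The groups did not overlap, and replicate 2 of RXR-deficient mAMs lay nearest the control mAMs. The log2 fold change was 1.21 ± 0.23 in RXR-deficient mAMs (limma, adjusted p = 0.0146) and 2.95 ± 0.23 in ImmAMs (adjusted p = 3.06e-07), both against control mAMs. The same replicate 2 held the lowest sum of interstitial macrophage markers of the 3, at 3.57 CPM against 6.14 and 12.02 CPM, and the part of these cells in the result was not tested. The call of Slc44a1 in RXR-deficient mAMs was lost when replicate 1 or replicate 3 of these cells was left out, with a limma adjusted p of up to 0.0710. The thiamine carrier Slc19a2 was at 8.42 ± 1.35, 12.5 ± 0.673 and 13 ± 0.75 CPM and was higher in both comparisons with control mAMs. In ImmAMs against control mAMs, 4 of the 10 members of this class rose and 0 fell. That is 40% of the class higher, beside 22.8% of all genes higher and 25.3% lower, with 48.1% called in either direction. Slc23a2, which takes up vitamin C, was among those that rose, from 170.4 ± 8.89 to 227 ± 4.81 CPM (limma, adjusted p = 0.000151).

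Of the sugar carriers, 7 of 13 rose in ImmAMs against control mAMs and 0 fell, with a median log2 fold change of 0.47. That is 53.8% of the class higher, beside 22.8% of all genes higher and 25.3% lower. The glucose carrier Slc2a1 gave 15.4, 15.2, 12.6 and 14.2 CPM in control mAMs, 22.2, 13.7 and 20.1 CPM in RXR-deficient mAMs and 62.4, 63.3 and 72.1 CPM in ImmAMs. ImmAMs lay above all other libraries, and RXR-deficient mAMs overlapped the control mAMs. The rise in ImmAMs was 4.61-fold (limma, adjusted p = 8.73e-08), and in RXR-deficient mAMs the log2 fold change was 0.36 ± 0.15 (adjusted p = 0.169). Slc2a6, a related hexose carrier found on lysosomes, gave 11.9, 9.75, 8.58 and 10.1 CPM, 19.3, 8.43 and 22.4 CPM and 48.8, 60.4 and 52.4 CPM. It rose 5.35-fold in ImmAMs (limma, adjusted p = 6.47e-06), and in RXR-deficient mAMs 2 libraries lay above the control mAMs and 1 below.

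Slc2a3, another glucose carrier, was at 1.1 ± 0.532 CPM in control mAMs and 6.86 ± 0.542 CPM in ImmAMs (limma, adjusted p = 0.000162). Slc2a3 passed the filter only with ImmAMs in the fit, so the filter favoured a rise and this adjusted p does not stand as support. Slc37a2, a sugar phosphate carrier of the endoplasmic reticulum in macrophages, rose from 25.8 ± 4.02 to 78.6 ± 4.65 CPM (limma, adjusted p = 6.93e-07). The CPM of the 13 sugar carriers summed to 255.1 ± 3.76 in control mAMs, 285.6 ± 8.96 in RXR-deficient mAMs and 440.6 ± 4.62 in ImmAMs. These sums did not overlap between the groups. Against RXR-deficient mAMs, 7 of the 13 were higher in ImmAMs and 2 were lower, beside 17.7% of all genes higher and 20.2% lower. Txnip, which promotes removal of glucose carriers from the plasma membrane, was at 1683 ± 121 CPM in control mAMs and 2042 ± 14.4 CPM in ImmAMs (limma, adjusted p = 0.0077).

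**Figure D3:**
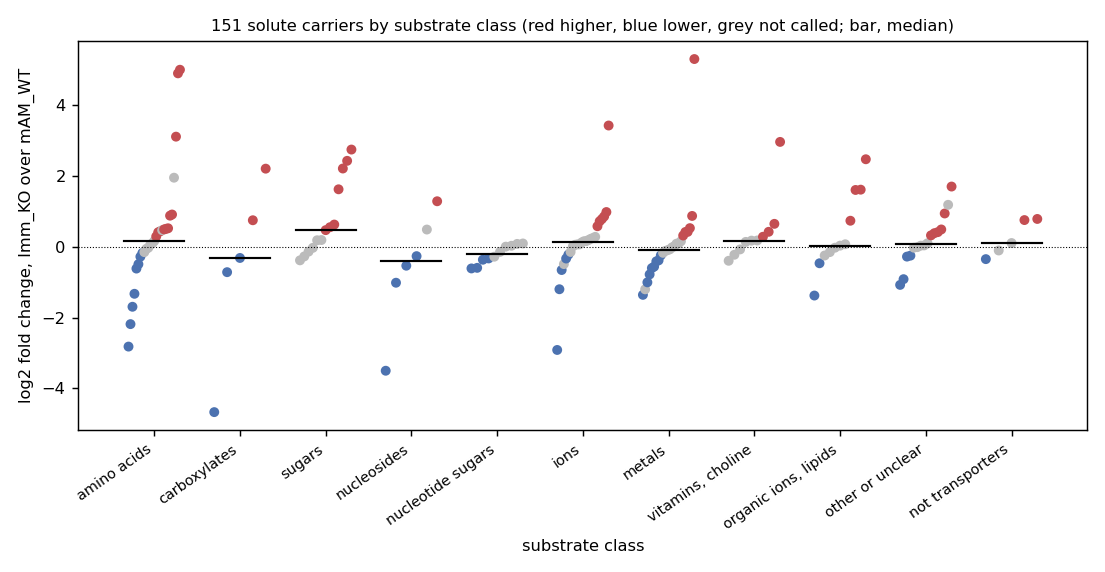
Log2 fold change of ImmAMs over control mAMs for the 151 members, 1 point per gene, ordered within each substrate class, with a bar at the class median. Red points were called higher, blue points lower and grey points were not called, and the sugar class has the highest median, at 0.47.

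The monocarboxylate carriers move lactate and pyruvate with protons. Slc16a1 gave 23.6, 17.4, 22.5 and 17.8 CPM in control mAMs, 13.3, 14.1 and 10.2 CPM in RXR-deficient mAMs and 14.2, 10.8 and 11.8 CPM in ImmAMs. It fell in RXR-deficient mAMs (-0.70 ± 0.16, limma adjusted p = 0.0311) and in ImmAMs (-0.72 ± 0.16, adjusted p = 0.00231), and the difference between these groups did not pass the test (adjusted p = 0.93). Slc16a3, the lactate exporter of glycolytic cells, was at 55.2 ± 5.7, 42.9 ± 1.39 and 44.2 ± 4.94 CPM and was lower in ImmAMs (limma, adjusted p = 0.0178), with 1 library of each group in overlap and the call lost in 2 of the 10 fits that leave out a library. Slc16a7, a carrier of higher affinity for pyruvate, rose from 48 ± 7.47 to 79.9 ± 8.2 CPM (limma, adjusted p = 0.000184). All 5 carboxylate carriers were called in ImmAMs, 2 higher and 3 lower, where 48.1% of all genes were called.

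Slc29a1 and Slc29a3, both equilibrative nucleoside carriers, went opposite ways in ImmAMs. Slc29a1, found mainly at the plasma membrane, gave 214, 290.1, 280.4 and 286 CPM in control mAMs, 187, 211 and 185 CPM in RXR-deficient mAMs and 177, 192 and 179.6 CPM in ImmAMs. It fell in RXR-deficient mAMs (-0.45 ± 0.10, limma adjusted p = 0.0279) and in ImmAMs (-0.54 ± 0.10, adjusted p = 0.000697), and replicate 1 of control mAMs lay apart below the other 3 control libraries. Slc29a3, the lysosomal member of the family, gave 50.6, 50.2, 50.4 and 48.9 CPM, 58.5, 50.5 and 71.7 CPM and 119, 126 and 120.4 CPM. Slc29a3 rose 2.43-fold in ImmAMs (limma, adjusted p = 2.76e-07), with no overlap of ImmAMs with either group of mAMs.

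The purine nucleobase carrier Slc43a3 gave 7.91, 11.5, 11.3 and 9.99 CPM in control mAMs, 8.05, 6.95 and 7.4 CPM in RXR-deficient mAMs and 1.28, 0.673 and 0.814 CPM in ImmAMs. The fall in ImmAMs was 11.3-fold (limma, adjusted p = 9e-08), on 50 reads over the 3 ImmAM libraries. Slc17a9, a carrier of nucleotides into vesicles and lysosomes, fell from 16.8 ± 3.51 to 8.28 ± 1.57 CPM (limma, adjusted p = 0.00038). Of the 6 members of this class, 1 rose and 4 fell in ImmAMs, where 48.1% of all genes were called. The concentrative carrier Slc28a2 and the phosphate carrier Slc34a2 are not listed in the table.

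The 10 carriers of nucleotide sugars and of the sulfate donor PAPS feed glycosylation and sulfation in the endoplasmic reticulum and Golgi. In ImmAMs against control mAMs, 0 rose and 4 fell, with a median log2 fold change of -0.22. That is 40% of the class called, beside 48.1% of all genes called and 25.3% called lower. Slc35b3 fell from 49.3 ± 4.08 to 32.2 ± 4.03 CPM (limma, adjusted p = 0.000236) and Slc35b2 from 45.1 ± 2.74 to 34.9 ± 1.46 CPM (adjusted p = 0.00186), and both carry PAPS. Slc35b4, which carries UDP-linked sugars, fell from 86.5 ± 5.11 to 57 ± 1.28 CPM (limma, adjusted p = 1.21e-05). The class summed to 503.6 ± 9.76 CPM in control mAMs, 509.8 ± 4.37 CPM in RXR-deficient mAMs and 426.0 ± 6.52 CPM in ImmAMs.

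**Figure D4:**
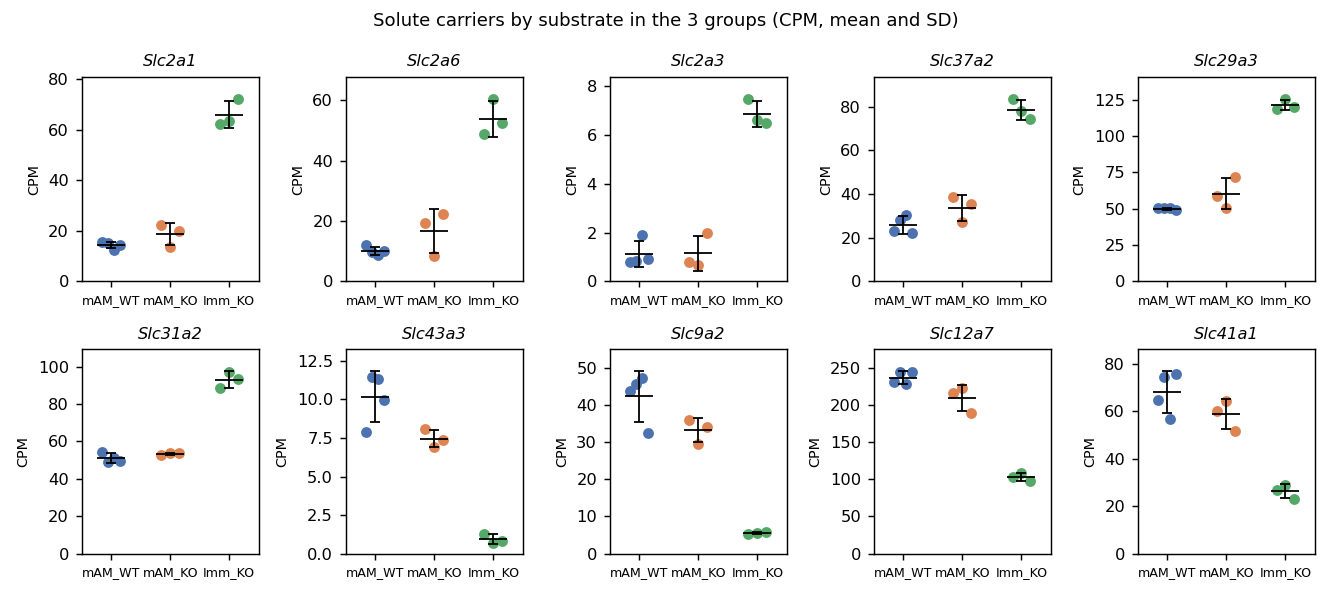
CPM of 10 members of the sugar, nucleoside, ion and metal classes in control mAMs (mAM_WT), RXR-deficient mAMs (mAM_KO) and ImmAMs (Imm_KO), 1 point per library and bars for the mean and SD, on axes that start at 0. In each panel the ImmAMs lie apart from both groups of mAMs, above them for Slc2a1, Slc2a6, Slc2a3, Slc37a2, Slc29a3 and Slc31a2 and below them for Slc43a3, Slc9a2, Slc12a7 and Slc41a1. All but Slc37a2 were named by a rule that requires no overlap of ImmAMs with control mAMs. Their separation from control mAMs is thus part of the selection.

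The potassium-chloride cotransporters of the Slc12 family lower cell volume. Slc12a7 gave 230.3, 244, 227 and 244 CPM in control mAMs, 215, 223 and 189 CPM in RXR-deficient mAMs and 103, 108 and 97.4 CPM in ImmAMs, and it fell 2.3-fold in ImmAMs (limma, adjusted p = 2.35e-08). Slc12a4 was at 54.3 ± 3.2, 42.6 ± 4.96 and 46.4 ± 0.903 CPM and was below control mAMs in both comparisons. The call of Slc12a4 in ImmAMs held in 5 of 14 alternatives, not with edgeR, DESeq2 or voom, and in 2 of the 10 fits that leave out a library, with a limma adjusted p of up to 0.125. The loading cotransporter Slc12a2, which brings in sodium, potassium and chloride, was higher in ImmAMs, at 5.17 ± 0.524 CPM against 2.64 ± 0.372 CPM (limma, adjusted p = 0.0103).

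Among the sodium-proton exchangers, Slc9a2 gave 43.9, 45.7, 47.3 and 32.4 CPM in control mAMs, 36, 29.6 and 34.2 CPM in RXR-deficient mAMs and 5.39, 5.45 and 5.8 CPM in ImmAMs. It fell 7.55-fold in ImmAMs (limma, adjusted p = 2.53e-09). The sodium-bicarbonate carrier Slc4a7 rose from 37.9 ± 7.21 to 67.7 ± 7.02 CPM (limma, adjusted p = 0.000351). The phosphate importer Slc20a1 was at 43.9 ± 3.12 and 48.7 ± 1.86 CPM and was not called. Of the 24 ion carriers, 6 rose and 5 fell in ImmAMs, a share of 45.8% beside the 48.1% of all genes, so the class as a whole was near the background.

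Of the 24 metal carriers, 6 rose and 8 fell in ImmAMs against control mAMs. These are 25% higher and 33.3% lower, beside 22.8% and 25.3% of all genes, so the class was near the background. Both members of the copper family rose, Slc31a1 from 22.3 ± 2.57 to 31.8 ± 0.392 CPM (limma, adjusted p = 0.00223) and Slc31a2 from 51.1 ± 2.47 to 93.1 ± 4.39 CPM (adjusted p = 3.61e-07). Slc41a1, which moves magnesium, gave 64.8, 74.5, 56.9 and 75.8 CPM in control mAMs, 60.3, 64.4 and 51.8 CPM in RXR-deficient mAMs and 27, 29.1 and 23.2 CPM in ImmAMs, a fall of 2.57-fold in ImmAMs (limma, adjusted p = 9.23e-07). The zinc importers Slc39a2, at 83.3 and 41.2 CPM, and Slc39a1, at 186 and 156 CPM, were lower, and so was the heme carrier Slc48a1, at 202 and 117 CPM. Slc30a4, which moves zinc into vesicles, was at 0.568, 0.141, 0.544 and 0.0246 CPM in control mAMs and 7.42, 7.77 and 6.17 CPM in ImmAMs (limma, adjusted p = 0.000812), and the level in control mAMs rests on 38 reads over 4 libraries. Slc30a4 passed the filter only with ImmAMs in the fit. The filter thus favoured a rise, and this adjusted p does not stand as support for it. The zinc exporter Slc30a1 was at 12.1 ± 0.892 and 10.7 ± 0.48 CPM and was not called.

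Grouped by organelle instead of substrate, 13 of 17 carriers placed on lysosomes or endosomes were called in ImmAMs against control mAMs, 8 higher and 5 lower. Of 22 carriers listed for the endoplasmic reticulum and Golgi, 6 were called, 0 higher and 6 lower. This list leaves out Slc37a2, placed above in the endoplasmic reticulum, which was called higher. The count of 0 higher thus depends on the list. The background for this comparison is the 48.1% of all genes given above. The carriers of lysosomes or endosomes that rose carry amino acids, nucleosides, sugars, ions and metals. Those that fell include Slc15a3, Slc48a1, Slc17a9 and Slc46a3, a lysosomal carrier at 9.67 and 5.09 CPM.

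Of 34 listed genes that work with these carriers, 32 were in the table. In RXR-deficient mAMs 0 were higher and 2 lower, near the background of 4.84% of all genes called. Oxsr1, a kinase that regulates the cation-chloride cotransporters, went from 104 ± 5.33 to 85.9 ± 3 CPM (limma, adjusted p = 0.0388), and the copper chaperone Atox1 from 45.5 ± 7.58 to 33.2 ± 1.59 CPM (adjusted p = 0.0498). Replicate 4 of RXR-deficient mAMs, not in this fit, held 58.1 CPM of Atox1, above the 38.1 to 53.3 CPM of control mAMs. The same library held 79.8 CPM of Oxsr1, below every control library. In ImmAMs against control mAMs, 12 were higher and 12 lower, where 48.1% of all genes were called. The largest rises were those of Rragd, a GTPase of amino acid sensing at the lysosome, from 0.985 ± 0.62 to 10.2 ± 0.503 CPM, and of Ank, from 3.17 ± 0.294 to 19.9 ± 1.74 CPM. The largest falls were those of Stk39, a kinase related to Oxsr1, from 12.3 ± 1.89 to 1.07 ± 0.216 CPM, and of the metallothionein Mt2, which binds zinc, from 65.2 ± 12.9 to 13.1 ± 0.717 CPM.

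The promoters of 4 members are printed here to show the letters upstream of genes that fell (Slc16a1, Slc29a1) and rose (Slc36a1, Slc44a1) in ImmAMs. RefSeq (GRCm38.p6) gives a start site for 112 of the 151 members, and 250 bases before each start were searched on both strands. The direct repeat AGGTCANAGGTCA was found in 0 of the 112 and in 0.0424% of the tested genes with an entry, and other spacings were not searched. It is so rare in these windows that 0 of 112 cannot set the members apart. The paper places most RXR peaks in introns and between genes, and such regions were not searched. The single AGGTCA was found in 16 members, or 14.3%, against 12.9% of tested genes. The E-box CACGTG, which is bound by MYC and by regulators of lysosomal genes, was found in 17 members, or 15.2%, against 10.1% of tested genes. Of the members with an entry, it stood before 5 of the 35 that rose in ImmAMs, 4 of the 28 that fell and 8 of the 49 that were not called. A match is a description of letters and not a site of binding. The windows are chr3:104638414-104638663, plus strand for Slc16a1, chr17:45595247-45595496, minus strand for the 1 start of Slc29a1, of 8, that has an E-box in its window, chr11:55204090-55204339, plus strand for Slc36a1 and chr4:53440163-53440412, plus strand for 1 of the 2 starts of Slc44a1, each read 5′ to 3′ towards the start, with the E-box in capitals. The E-box begins 200 bases before the start in Slc16a1, 75 in Slc29a1 and 31 in Slc36a1, and Slc44a1 has none in the windows of its 2 starts. The window of Slc36a1 also holds the single AGGTCA, read on the other strand as TGACCT, which overlaps the end of the E-box and is not marked apart.
Slc16a1: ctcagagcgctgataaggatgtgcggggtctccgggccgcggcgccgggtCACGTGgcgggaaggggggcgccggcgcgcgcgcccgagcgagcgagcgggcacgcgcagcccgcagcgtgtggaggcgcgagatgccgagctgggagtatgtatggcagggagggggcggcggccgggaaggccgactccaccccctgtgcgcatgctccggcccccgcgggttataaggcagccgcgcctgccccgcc
Slc29a1: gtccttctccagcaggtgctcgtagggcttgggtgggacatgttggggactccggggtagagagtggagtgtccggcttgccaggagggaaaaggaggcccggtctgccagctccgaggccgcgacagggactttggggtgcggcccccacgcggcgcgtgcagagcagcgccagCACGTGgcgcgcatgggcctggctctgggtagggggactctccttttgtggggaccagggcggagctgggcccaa
Slc36a1: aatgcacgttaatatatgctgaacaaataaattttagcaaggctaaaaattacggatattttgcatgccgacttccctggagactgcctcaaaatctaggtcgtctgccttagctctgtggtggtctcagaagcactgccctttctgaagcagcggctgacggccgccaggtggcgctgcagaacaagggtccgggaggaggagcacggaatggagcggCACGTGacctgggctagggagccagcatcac
Slc44a1: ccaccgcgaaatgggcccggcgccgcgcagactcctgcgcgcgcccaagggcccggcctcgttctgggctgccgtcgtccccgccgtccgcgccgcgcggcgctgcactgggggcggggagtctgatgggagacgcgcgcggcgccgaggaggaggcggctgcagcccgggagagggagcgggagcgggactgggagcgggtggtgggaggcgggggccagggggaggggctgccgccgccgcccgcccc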

How the data were processed

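RNA-seq libraries of sorted mAMs and ImmAMs (single-end reads of 60 bases, directional kit) were analysed. Per the study's methods and the labels, the authors removed adapters (Cutadapt), estimated counts per gene on the GRCm38 transcriptome (RSEM 1.3.1), applied TMM normalisation (limma) and dropped genes that did not reach 1 CPM in 3 samples. The methods name lavage as the source of the cells and the design text a digested lung, and this was not resolved. The deposited values are CPM on TMM-scaled library sizes, with 0.5 read added. Dividing by the step of each library gave whole reads within 0.01 for 100% of values.

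Log2 CPM of 10 libraries was fitted in limma 3.58.1 (R 4.3.3, variance trend, 3 group means, genes at 1 CPM or more in 3 of them, two-sided tests, Benjamini-Hochberg adjustment). mAM_KO replicate 4 entered an alternative, since the legends of the study give 3 mice and its table of changed genes holds columns for replicates 1 to 3. On the whole reads, edgeR 4.0.16 called 566, DESeq2 1.42.0 called 1368 and voom called 528 genes in RXR-deficient against control mAMs, where limma called 624. The fits were tested on simulated data. CPM per kilobase used the union of exons in GENCODE vM21, in which all 151 members were found.

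The members, substrate lists, organelle list, partners, markers and rules were chosen with earlier results of these data known. Named are all members called in RXR-deficient mAMs, in each class the 3 largest called rises and falls in ImmAMs with at least 5 CPM and no overlap, 28 fixed names, 26 of them in the table, the 5 highest levels per kilobase, and partners by call or as the 2 largest rises and falls. Results for 3 members that meet these rules are not reported here. The motifs and the promoters printed were chosen after the values were seen.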

Additional observations from a re-analysis of the deposited data

Results flagged for a closer look

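In each group of 4 libraries, replicate 4 of RXR-deficient mAMs included, the distance of the lowest and the highest library to its nearest neighbour was compared with the range of the group on the log2 scale, for the 56 named members. This test of 112 groups marked 6, and chance alone marks about 1 in 20. In control mAMs, Slc29a1 was low in replicate 1, at 213.6 CPM against 280.4 to 290.1 CPM, and Slc6a6 was high in replicate 3, at 1041 CPM against 953.9 to 967.5 CPM. In RXR-deficient mAMs, replicate 2 was low for Slc1a3, at 2.61 CPM against 7.45 to 7.77 CPM, and low for Slc2a6, at 8.43 CPM against 19.3 to 22.7 CPM. Replicate 4 was high for Slc16a3, at 61.2 CPM against 41.5 to 44.3 CPM, and low for Slc16a7, at 41.8 CPM against 52.4 to 54.3 CPM.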

How the results depend on the processing

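The counts for ImmAMs kept within 1.5 times of 88 and 68 in 13 of 14 alternatives. The exception kept only calls with an estimated fold of at least 1.5 and gave 51 and 44 by its construction. With 1 library left out they ran from 68 to 91 and from 54 to 70. The count of 13 in RXR-deficient mAMs was within 1.5 times in 9 of 14 alternatives. It was 22 with DESeq2, which includes all 13, and 5 when only calls with an estimated fold of at least 1.5 were kept. With only the 2 groups compared it was 2, without a variance trend 1, and with 1 library left out 2 to 18. The cause was not tested beyond the fold and the fewer samples. With the replicate number as a block the count was 2. Same-numbered libraries deviated from their group means with correlations of -0.13 to 0.06 (8 pairs, against -0.15 to 0.21 for the 25 others), so the numbers are not shown to pair the libraries. Of the named members called, 1 of 12 in RXR-deficient mAMs, 35 of 54 in ImmAMs against control mAMs and 33 of 44 in ImmAMs against RXR-deficient mAMs kept their call in every alternative and without each library. Level per kilobase in control mAMs over the longest transcript was 158.6 for Slc6a6, 117.7 for Slc7a2, 105.8 for Slc15a3 and 79.7 for Slc48a1.

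A sign changed under an alternative in 9 named results, none of which passed the test in either setting. In RXR-deficient against control mAMs, on the log2 scale, Slc9a3r2 went from -0.082 to 0.11 (all 11 libraries), and ran from -0.19 to 0.0098 with 1 library left out. Slc2a3 went from -0.015 to 0.050 (all 11 libraries), 0.0053 (pseudocount of 0.5 CPM), 0.0098 (pseudocount of 1 CPM), 0.035 (edgeR), 0.029 (DESeq2), and ran from -0.49 to 0.30 with 1 library left out. Slc20a1 went from 0.012 to -3.5e-05 (all 11 libraries), and ran from -0.036 to 0.089 with 1 library left out. Slc27a3 went from -0.30 to 0.26 (edgeR), 0.25 (DESeq2), and ran from -1.07 to 0.66 with 1 library left out. Slc6a6 was 0.022, and ran from -0.045 to 0.072 with 1 library left out. Slc35e4 went from -0.045 to 0.095 (all 11 libraries), 0.020 (replicate block), and ran from -0.15 to 0.062 with 1 library left out. In ImmAMs against RXR-deficient mAMs, on the log2 scale, Slc9a3r1 was -0.11, and ran from -0.17 to 0.012 with 1 library left out. Slc16a3 went from 0.039 to -0.089 (all 11 libraries), and ran from -0.040 to 0.12 with 1 library left out. Slc16a1 went from -0.024 to 0.086 (replicate block), and ran from -0.16 to 0.069 with 1 library left out. Depth limits members under about 2 CPM, such as Slc30a4 and Slc1a3, where 3 reads are worth 0.0793 to 0.179 CPM.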

Other observations

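Members outside the substrate classes described above also differed in ImmAMs. Of the 11 carriers of organic ions and lipids, 4 rose and 2 fell against control mAMs, where 48.1% of all genes were called. Slc18b1, a vesicular polyamine carrier, was at 4.89 ± 0.743 CPM in control mAMs and 8.07 ± 0.912 CPM in ImmAMs (limma, adjusted p = 0.00647), and Slc27a3, an acyl-CoA synthetase of the fatty acid transport family, at 1.71 ± 0.432 and 5.07 ± 0.313 CPM (adjusted p = 0.0424). The call of Slc27a3 held in 4 of the 10 fits that leave out a library and was lost without a variance trend. Of the 16 with other or unclear substrates, 6 rose and 4 fell, a share of 62.5% called. Slc35e4 was at 20.5 ± 4.22 and 38.7 ± 1.37 CPM, Slc35e1 at 83.8 ± 4.5 and 111 ± 4.33 CPM and Slc35e3 at 16.1 ± 0.628 and 22.5 ± 1.62 CPM. Lower in ImmAMs were Slc35g1, at 9.69 ± 0.657 and 4.6 ± 0.531 CPM, and Slc35a4, at 70.2 ± 5.83 and 57.6 ± 3.2 CPM.

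Slc9a3r1 and Slc9a3r2 encode scaffold proteins that bind sodium-proton exchangers and went opposite ways. Slc9a3r1 fell from 78 ± 12.4 to 60.5 ± 2.75 CPM (limma, adjusted p = 0.0318), and Slc9a3r2 rose from 25.1 ± 4.41 to 42.7 ± 4.33 CPM (adjusted p = 0.000502). The call of Slc9a3r1 held in 6 of the 10 fits that leave out a library. In the classes of organic ions and lipids, of other substrates and of proteins that are not transporters, 0 members were called in RXR-deficient mAMs against control mAMs. With 4.84% of all genes called, a count of 0 does not set classes of this size apart.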
